A study of Mus musculus with 10 samples.

Results

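The genes described here are 38 genes of skeletal muscle, out of 47729 genes in the count table. They were taken from a list of sarcomere and muscle metabolism genes by symbol, and all 38 were found in the table. RNA was sequenced from the eyecup of 5 wild-type CD1 mice at 40 days of age, with 1 library from each eye, after removal of the retina and of connective tissue. The labels name the source as retinal pigment epithelium (RPE), pigmented cells that back the retina, a layer in which skeletal muscle has no place. The control eye of each mouse was given AAV-Best1-GFP and the Nrf2 eye was given AAV-Best1-Nrf2, with the human Nrf2 coding sequence, together with AAV-Best1-GFP. AAV is a viral vector for gene transfer, and the Best1 promoter drives expression in the RPE. Every eye therefore carried GFP, and the Nrf2 eye received an additional vector for which no eye here had a match. Between 12298404 and 27310638 counts were obtained per library. Where a gene had none, up to 3 counts remain possible, which is 0.110 to 0.244 CPM, the counts scaled to the library total. Where 5 values are given for a group, they are in the order of mice 1 to 5. The number of muscle fibres carried and the RNA per fibre cannot be told apart in such bulk libraries.

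In skeletal muscle, thick filaments of myosin pull on thin filaments of actin inside the sarcomere. Calcium released from the sarcoplasmic reticulum binds troponin C and moves tropomyosin off the actin, and calcium is then pumped back by the SERCA1 pump. Fibres differ in the myosin heavy chain they use: Myh4 in fast type 2B fibres, Myh1 in fast type 2X, Myh2 in fast type 2A and Myh7 in slow fibres, while Myh3 and Myh8 are the embryonic and perinatal forms and Myh13 is the form of extraocular muscle. The extraocular muscles, which turn the eye, insert on the sclera and are known for using nearly all of these forms.

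Of the 7 myosin heavy chain genes, 6 lie side by side on chromosome 11 (GRCm38, positions 67078300 to 67371586), in the order Myh3, Myh2, Myh1, Myh4, Myh8 and Myh13, and Myh7 lies on chromosome 14. The 250 bases before the start of Myh1 and Myh4, neighbours whose ratio set one library apart, are shown beside those of Ckm, the creatine kinase with the widest range among libraries, and of Tpm2, a tropomyosin that followed another order. The sequences are from RefSeq (GRCm38.p6), 5′ to 3′ on the strand of the gene. Capitals mark matches on either strand to TATAA, to the E box CANNTG, to the MEF2 consensus and to the CArG box.
Myh1, chr11:67199852-67200101, plus strand: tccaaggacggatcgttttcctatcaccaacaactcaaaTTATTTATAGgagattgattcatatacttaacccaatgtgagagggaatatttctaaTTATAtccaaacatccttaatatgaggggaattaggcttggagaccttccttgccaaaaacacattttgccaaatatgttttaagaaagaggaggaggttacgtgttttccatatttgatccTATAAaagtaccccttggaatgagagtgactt
Myh4, chr11:67237562-67237811, plus strand: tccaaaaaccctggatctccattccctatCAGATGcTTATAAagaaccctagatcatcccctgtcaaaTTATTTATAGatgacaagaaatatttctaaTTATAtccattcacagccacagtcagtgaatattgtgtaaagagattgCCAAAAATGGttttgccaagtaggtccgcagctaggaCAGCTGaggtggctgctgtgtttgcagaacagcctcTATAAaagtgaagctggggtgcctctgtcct
Ckm, chr7:19410844-19411093, plus strand: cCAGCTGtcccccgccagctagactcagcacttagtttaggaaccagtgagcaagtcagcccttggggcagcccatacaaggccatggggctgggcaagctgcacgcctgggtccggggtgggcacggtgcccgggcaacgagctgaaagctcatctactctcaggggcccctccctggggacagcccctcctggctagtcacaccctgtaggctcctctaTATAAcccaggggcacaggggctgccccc
Tpm2, chr4:43523555-43523804, minus strand: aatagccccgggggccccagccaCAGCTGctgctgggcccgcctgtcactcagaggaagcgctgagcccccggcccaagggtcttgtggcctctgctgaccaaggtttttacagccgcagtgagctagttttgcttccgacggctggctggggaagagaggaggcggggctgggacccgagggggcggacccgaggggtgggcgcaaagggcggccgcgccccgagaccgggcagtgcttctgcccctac
MEF2 and the factors that bind E boxes, such as MyoD, are known regulators of muscle genes, and the CArG box is bound by serum response factor. Myh1 and Myh4 each held 1 match to the MEF2 consensus, which on the other strand contains a TATAA, and the Myh4 window also held a CArG box. In Myh4, matches to TATAA on both strands overlap at the first capitals after the E box. Ckm held TATAA and 1 E box, and Tpm2 held 1 E box and no TATAA. RefSeq windows were found for 32 of the 38 genes, 39 windows in all. A match to the MEF2 consensus stood in 6 of the 39 windows (15.4%), against 2.92% of all 32851 promoter windows of that length. The CArG box stood in 12.8% of the windows of the muscle genes against 1.47% of all, TATAA in 35.9% against 22.8%, and the E box in 84.6% against 66.2%. These are matches of letters, not sites shown to be bound.

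Muscle RNA varied far more between libraries than most RNA did. From mouse 1 to mouse 5, the summed abundance of the 38 genes was 717, 362, 359, 394 and 381 CPM in the control eye. In the Nrf2 eye it came to 260, 292, 1087, 980 and 1646 CPM. The Nrf2 eyes of mice 3, 4 and 5 were thus above all control eyes and those of mice 1 and 2 below all of them. The mean within-mouse log2 ratio of Nrf2 over control was 0.65 (SE 0.67, n = 5 mice), smaller than its error, and was 0.28 without mouse 5 and 1.18 without mouse 1. The listed genes took between 0.026% and 0.165% of all counts.

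The tropomyosin genes Tpm1 and Tpm2, whose protein lies along the thin filament and which many other cells also express, made up 21.97% to 87.3% of this sum. Without them, the other 36 genes summed to 223, 126, 192, 249 and 140 CPM in the control eyes of mice 1 to 5. In the Nrf2 eyes they summed to 32.9, 71.4, 837, 580 and 1284 CPM. The libraries with most and least, the Nrf2 eyes of mice 5 and 1, differed 39.0-fold, while the control eyes lay within a narrow band between them. The mean within-mouse log2 ratio of the 36 genes was 0.59 (SE 1.07, n = 5), smaller than its error. It came from ratios of −2.76, −0.82, 2.12, 1.22 and 3.19 in mice 1 to 5, so its sign rests on single mice.

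**Figure D1:**
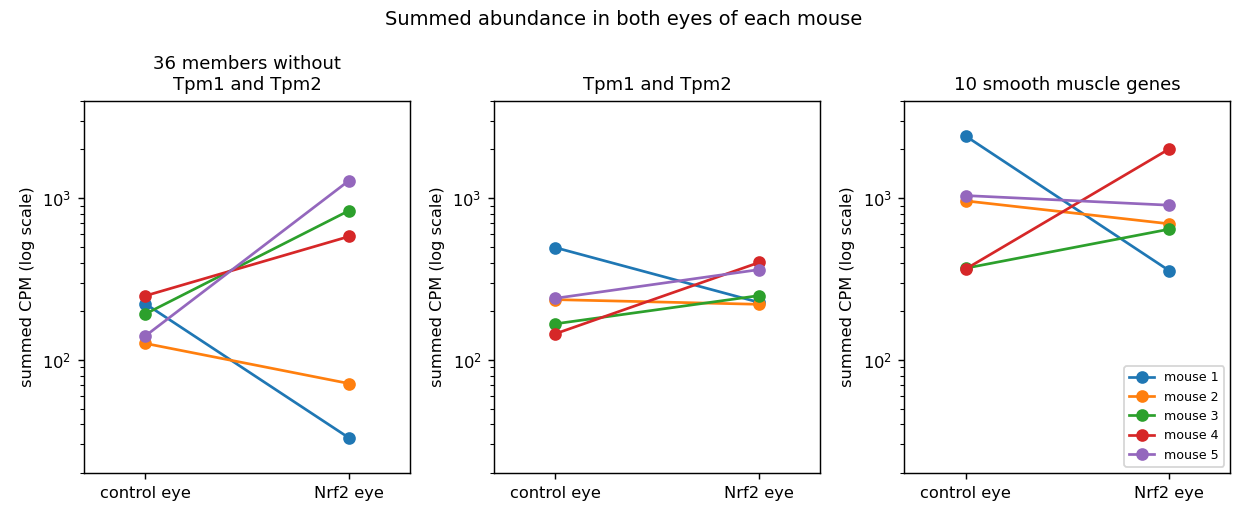
Summed CPM on a log scale in the control eye and the Nrf2 eye of each of 5 mice (joined points, 1 colour a mouse), for the 36 listed genes without Tpm1 and Tpm2, for Tpm1 and Tpm2, and for 10 smooth muscle genes. For the 36 genes the lines fall in mice 1 and 2, to 32.9 and 71.4 CPM, and climb in mice 3, 4 and 5, to 837, 580 and 1284 CPM.

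The spread showed gene by gene. Of the 38 genes, 31 had enough counts for the test across genes, and 7 did not: Myh3, Myh8 and Myh13, and the slow isoforms Myl2, Myl3, Tnni1 and Tnnc1. On the log2 scale, 20 of the 31 tested genes ranged over more than 4 units between the 10 libraries, against 6.55% of all 16362 tested genes, and their median range was 5.47 against 1.17. The highest library was the Nrf2 eye of mouse 5 for 22 of the 31 (9.89% of all tested genes) and the lowest was the Nrf2 eye of mouse 1 for 22 of the 31 (13.6% of all).

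**Figure D2:**
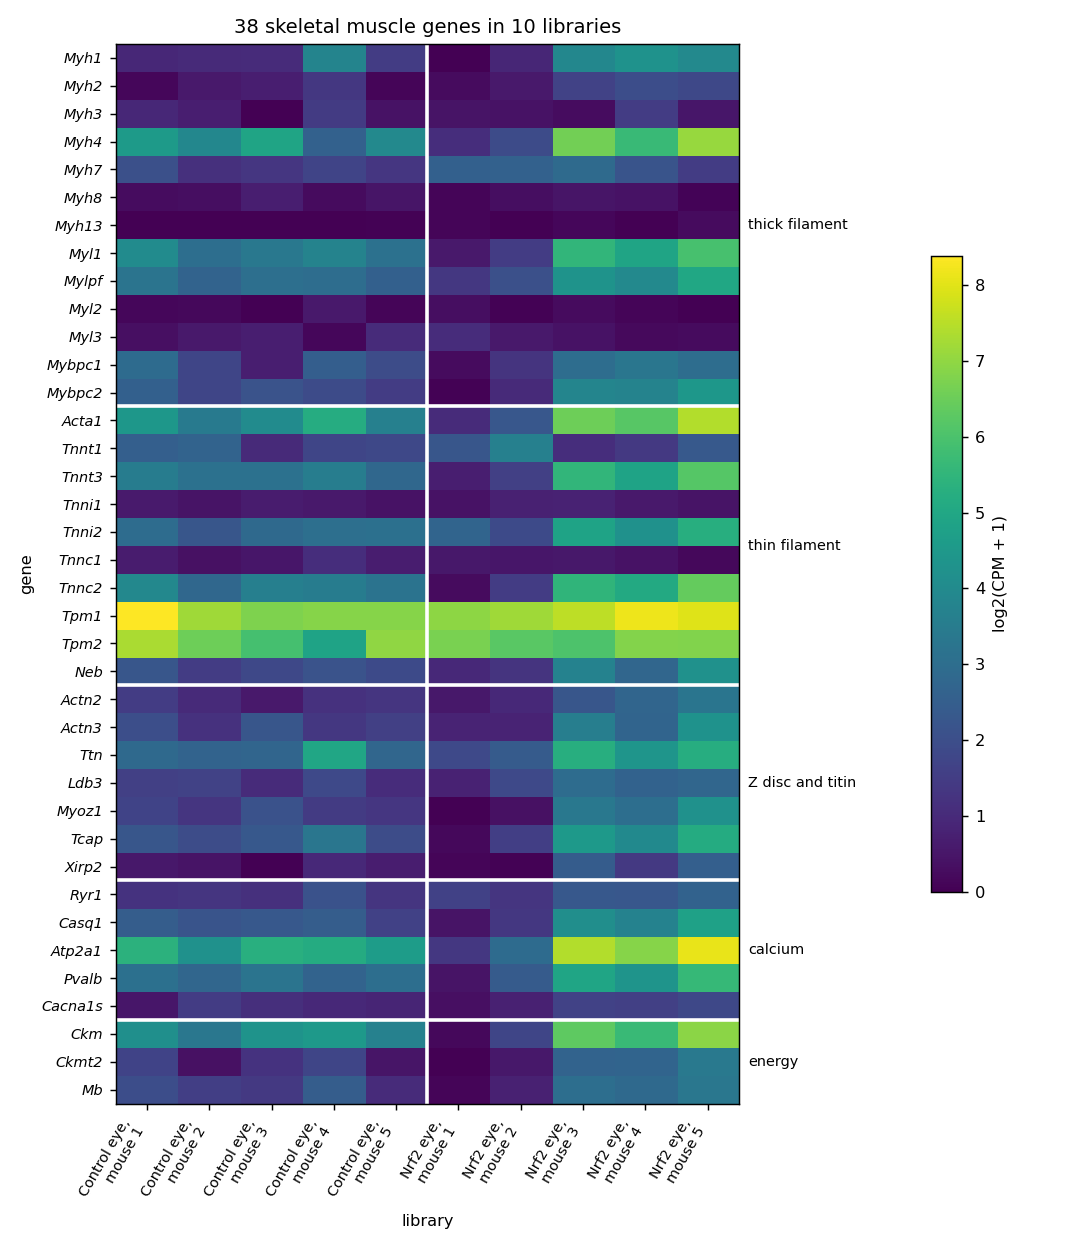
Heat map of log2(CPM + 1) for the 38 genes (rows, grouped by role) in the 5 control and 5 Nrf2 libraries (columns, parted by a white line). The rows of Atp2a1, Acta1, Ckm and Myh4 are brightest in the Nrf2 eyes of mice 3, 4 and 5 and dark in the Nrf2 eye of mouse 1, whereas Tpm1 and Tpm2 are bright in all 10 libraries.

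Against this spread, no listed gene passed the test of Nrf2 against control eyes. In edgeR's quasi-likelihood test, blocked by mouse and adjusted by Benjamini-Hochberg, 0 of the 31 tested genes had an adjusted p under 0.05, against 6.33% of all tested genes. Only Myh7 had an unadjusted p under 0.05, as had 19.1% of all tested genes, and with DESeq2 Myh7 was also the 1 gene called (9.44% of all by that tool). The fitted log2 fold changes of the 31 were all above 0, from 0.14 to 1.57, with a median of 0.74 against −0.01 for all tested genes. The median was 0.05 without mouse 5 and 1.53 without mouse 1, so that single mice set its size. The mean within-mouse log2 ratio is another estimate and need not have the sign of the fit. For the summed CPM of the 3 energy genes Ckm, Ckmt2 and Mb it was −0.34 (SE 1.77). For the summed thick filament, thin filament, Z disc and titin, and calcium genes it was 0.49 to 0.67. The SE given beside the fitted value of a gene is that of its mean within-mouse ratio. In none of the 31 were the groups free of overlap, which 6.28% of all tested genes were.

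The sign of the difference went with the mouse. In mouse 1 the Nrf2 eye was higher in 3 of the 31 genes (median log2 ratio −3.25) and in mouse 2 in 4 (median −0.69). In mouse 3 it was higher in all 31 (median 2.04), in mouse 4 in 29 (median 1.09) and in mouse 5 in 30 (median 2.83). Among all tested genes between 44.6% and 52.0% were higher in the Nrf2 eye of each mouse. Of the 31, only Myh7 had the same sign in all 5 mice, as had 20.2% of all tested genes.

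**Figure D3:**
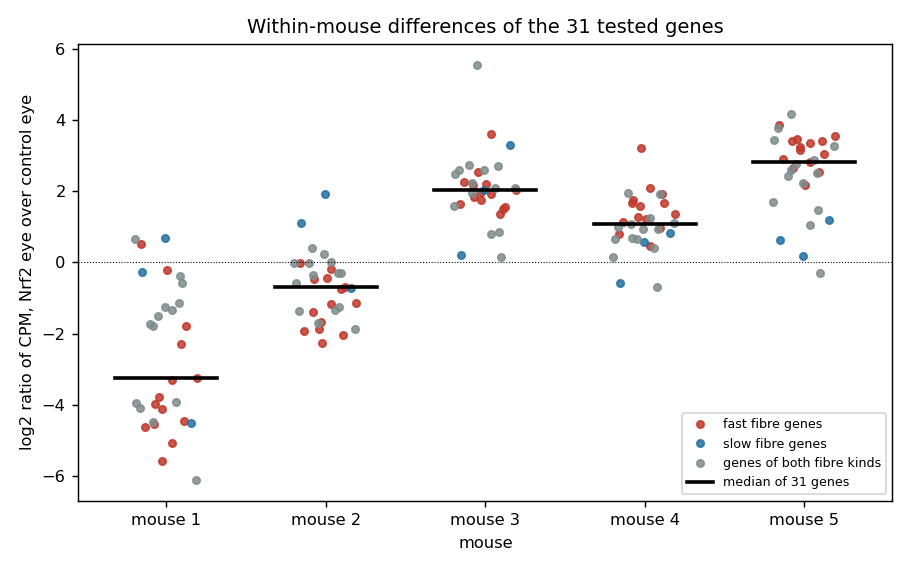
Log2 ratio of CPM, Nrf2 eye over control eye, for each of the 31 tested genes (points, coloured by fibre kind) in each mouse, with the median as a bar. The median lies at −3.25 and −0.69 in mice 1 and 2 and at 2.04, 1.09 and 2.83 in mice 3, 4 and 5.

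The myosin heavy chain genes carried the plainest record of fibre type. Myh4, the type 2B form, was at 22.6, 13.8, 28.6, 5.08 and 14.4 CPM in the control eyes. In the Nrf2 eyes it was at 1.14, 2.81, 96.2, 50.4 and 137 CPM. The groups overlapped, with the Nrf2 eyes of mice 3, 4 and 5 above every control eye, and the log2 fold change was 0.79 (SE 1.499, adjusted p = 0.847, edgeR). It was −0.12 without mouse 4, −0.19 without mouse 5 and 1.80 without mouse 1.

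Myh1, the type 2X form, was at 0.918, 0.986, 1.05, 12.8 and 1.83 CPM in control eyes of mice 1 to 5. In Nrf2 eyes it was at 0, 0.854, 13.6, 18.3 and 14.5 CPM, and the 0 counts of mouse 1 allow up to 0.137 CPM. For Myh1 the control eye of mouse 4 was therefore at the level of the Nrf2 eyes of mice 3, 4 and 5, while for Myh4 it was the lowest control eye. The log2 fold change of Myh1 was 1.05 (SE 1.22, adjusted p = 0.681, edgeR), and ran from 0.36 without mouse 3 to 1.80 without mouse 1.

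Myh2, the type 2A form, was low in all libraries, with 2, 8, 9, 26 and 2 counts in control eyes of mice 1 to 5. The Nrf2 eyes had 4, 12, 57, 36 and 42 counts, with the largest counts again in mice 3, 4 and 5. Its log2 fold change of 1.57 was the largest of the 31, but did not pass the threshold (SE 0.68, adjusted p = 0.271, edgeR). Without mouse 5 it was 0.90, below the 1.34 of Myh7, and without mouse 3 Myh2 was not tested.

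Myh7, the slow form, followed another order. It was at 3.16, 1.23, 1.54, 2.27 and 1.501 CPM in control eyes of mice 1 to 5. In Nrf2 eyes it was at 4.92, 5.04, 6.54, 3.58 and 1.82 CPM. The Nrf2 eye was the higher in 5 of 5 mice, including mice 1 and 2, whose Nrf2 eyes had the lowest Myh4, but the groups overlapped. The log2 fold change of 1.11 (SE 0.38) had an unadjusted p of 0.0187 and an adjusted p of 0.150 in edgeR, and an adjusted p of 0.0496 in DESeq2. Of the 50-base stretches of its transcript, 22.2% also occur in Myh6, the atrial form, a gene named here after its values were seen, which stayed between 0.0698 and 1.32 CPM.

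The developmental forms were low and the extraocular form was near the floor. Myh3 had 18, 10, 0, 29 and 9 counts in control eyes and 8, 8, 6, 22 and 7 in Nrf2 eyes of mice 1 to 5. Myh8 had 4, 4, 9, 3 and 11 counts in control eyes and 2, 6, 10, 4 and 1 in Nrf2 eyes. Myh13, the myosin that defines extraocular muscle, had 0, 0, 0, 0 and 1 counts in control eyes and 2, 0, 3, 0 and 3 in Nrf2 eyes. In total Myh13 had 9 counts, where Myh4 had 7078. The list was drawn up as genes of extraocular muscle, but as the defining myosin was at or near 0 they are described here as skeletal muscle genes.

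As shares of the counts of the 7 myosin heavy chain genes, Myh4 led in 7 of the 10 libraries. It took 77.5% to 88.2% in the control eyes of mice 1, 2, 3 and 5 and the Nrf2 eyes of mice 3 and 5. In the Nrf2 eye of mouse 4 it took 65.2% (95% Wilson interval 62.1 to 68.2), where Myh1 took 23.7%. In the control eye of mouse 4 Myh4 took 21.5% (17.8 to 25.8) and Myh1 54.2% (49.2 to 59.0) of 395 counts, the reverse of the other control eyes, in which Myh1 took at most 9.86%. Intervals here cover counting error only, as amplified reads are not independent molecules.

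The Nrf2 eyes of mice 1 and 2 stood apart the other way. In mouse 1, Myh7 took 72.5% (64.8 to 79.0) and Myh4 16.8% (11.6 to 23.6) of only 149 counts. In mouse 2, Myh7 took 51.7% (45.4 to 57.9) and Myh4 28.8% (23.4 to 34.8) of 240 counts. In the other 8 libraries Myh7 took between 1.17% and 11.3%. Per kilobase of exon the shares of Myh7 in these 2 libraries were 65.7% and 44.0%, and those of Myh1 and Myh4 in the control eye of mouse 4 were 55.3% and 23.2%. Averaged over the 10 libraries, Myh4 took 62.7% ± 28.6 (SD) of counts and 65.7% per kilobase. Myh1, Myh2 and Myh4 share 18.9% to 26.9% of their 50-base stretches with other genes, so that part of their reads could have been lost or divided.

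**Figure D4:**
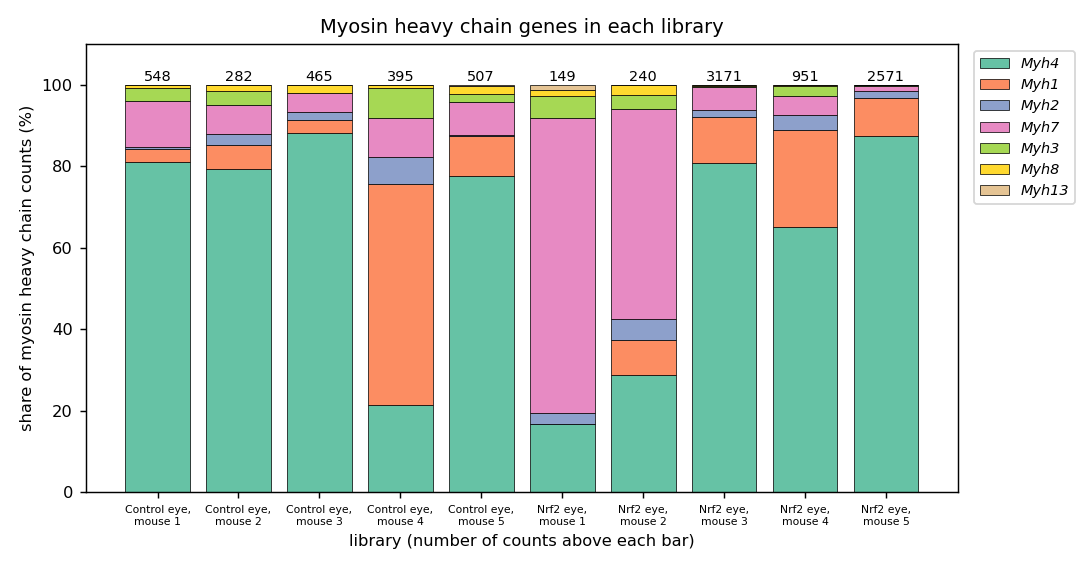
Stacked bars of the share of counts of 7 myosin heavy chain genes (percent) in each of the 10 libraries, with the number of counts above each bar. Myh4 fills most of 7 bars, Myh1 takes 54.2% in the control eye of mouse 4, and Myh7 takes 72.5% and 51.7% in the Nrf2 eyes of mice 1 and 2, which rest on 149 and 240 counts.

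Among the other thick filament genes, those of fast fibres had their extremes in the same libraries as Myh4. Myl1 and Mylpf, the light chains of fast fibres, ranged from 0.501 to 61.3 CPM and from 1.55 to 30.9 CPM, each lowest in the Nrf2 eye of mouse 1 and highest in that of mouse 5. Mybpc2, the fast form of myosin binding protein C, had 1 count in the Nrf2 eye of mouse 1 and 341 in that of mouse 5, while Mybpc1, the slow form, had 4 and 115. Myl2 and Myl3, the slow light chains, stayed between 0 and 8 counts and between 2 and 28 counts, beside Ccdc63 and Pth1r on the opposite strand with 345 and 1765 counts in all.

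The troponins come as fast and slow sets, and of the slow set Tnni1 and Tnnc1 had too few counts for the test. Troponin T anchors the complex to tropomyosin, troponin I holds contraction off and troponin C binds calcium. Tnnt3, the fast troponin T, was at 10.6, 7.70, 7.75, 10.9 and 6.04 CPM in control eyes of mice 1 to 5. In Nrf2 eyes it was at 0.638, 2.03, 45.2, 28.0 and 71.7 CPM. The Nrf2 eyes stood in the same order as for Myh4, and the fold change was 0.66 on the log2 scale (SE 1.37, adjusted p = 0.857, edgeR), negative without mouse 3 or mouse 5 (−0.056 and −0.27).

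Tnnt1, the slow troponin T, was at 4.79, 5.30, 0.978, 2.39 and 2.49 CPM in control eyes. In Nrf2 eyes it was at 3.78, 11.7, 1.13, 1.63 and 4.13 CPM, with the maximum in mouse 2 and low values in mice 3 and 4, where the fast genes were high. Its fold change was 0.24 on the log2 scale (SE 0.30, adjusted p = 0.780, edgeR), or 0.037 without mouse 2 and 0.48 without mouse 4. Tnnt3 took 14.4% of the counts of both genes in the Nrf2 eye of mouse 1 (8.80 to 22.8) and 14.8% in that of mouse 2 (11.4 to 18.97). It took 59.2% to 97.6% in the other 8 libraries.

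Tnnc2, the fast troponin C, was at 14.1, 6.04, 11.3, 10.5 and 8.13 CPM in control eyes and at 0.182, 1.83, 44.1, 33.3 and 83.4 CPM in Nrf2 eyes. Its slow counterpart Tnnc1, which is also the cardiac form, had 11, 5, 6, 19 and 16 counts in control eyes and 10, 10, 12, 4 and 2 in Nrf2 eyes. Tnnc1 was thus not highest in the libraries where Tnnc2 was. Tnnc2 took 28.6% (11.7 to 54.6) of only 14 counts of both genes in the Nrf2 eye of mouse 1. In that of mouse 2 it took 81.8% (69.7 to 89.8) of 55 counts, unlike Tnnt3. Tnnc1 overlaps Nisch on the opposite strand, which had 68322 counts, and without a stated strand setting their reads cannot be told apart. The same holds for Tnnc2, with 3938 counts, and Ube2c, with 1623. The log2 fold change of Tnnc2 was 0.56 (SE 1.60, adjusted p = 0.889, edgeR), and it turned to −0.032 without mouse 3 and −0.38 without mouse 5.

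Tnni2, the fast troponin I, was at 6.73, 3.70, 6.21, 7.35 and 7.58 CPM in control eyes and at 5.46, 2.72, 28.4, 17.97 and 37.0 CPM in Nrf2 eyes. Unlike most fast genes it kept its level in the Nrf2 eye of mouse 1, with 120 counts where Ckm had 3. It had a fitted log2 change of 1.04 (SE 0.57, adjusted p = 0.292, edgeR). Tnni1, the slow troponin I, had 10, 6, 8, 8 and 9 counts in control eyes and 7, 17, 20, 6 and 6 in Nrf2 eyes, with no library apart from the rest. Tnni2 took 94.5% (89.1 to 97.3) of the counts of both genes in the Nrf2 eye of mouse 1. In that of mouse 2 it took 79.8% (69.96 to 87.0), so this pair did not turn to the slow form as Tnnt3 and Tnnt1 did.

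Acta1, skeletal muscle actin, was at 20.7, 10.04, 15.4, 35.6 and 11.6 CPM in control eyes and at 1.05, 3.86, 92.4, 73.7 and 170 CPM in Nrf2 eyes. The highest control eye was that of mouse 4, below all of the Nrf2 eyes of mice 3, 4 and 5. Acta1 had a fitted log2 change of 0.69 (SE 1.41, adjusted p = 0.848, edgeR), or −0.24 without mouse 5. Per kilobase of exon, Acta1 reached 110 CPM in the Nrf2 eye of mouse 5, beside 104 for Tnnc2, 78.6 for Atp2a1, 46.8 for Pvalb and 22.7 for Myh4. Acta1 overlaps Gm20388 on the opposite strand (5179 counts against 7975), which the counts cannot separate with certainty. Neb, the giant ruler of the thin filament, ranged from 0.956 to 17.97 CPM, with the Nrf2 eyes in the same order as for Myh4.

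Tpm1 was at 334, 144, 108, 117 and 115 CPM in control eyes of mice 1 to 5. In Nrf2 eyes it was at 124, 146, 185, 288 and 252 CPM. The highest library was the control eye of mouse 1, and the Nrf2 eye of mouse 1, where Ckm had 3 counts, was close to most control eyes. Tpm2 was at 161, 91.4, 59.0, 28.2 and 126 CPM in control eyes and at 103, 74.9, 64.4, 112 and 109 CPM in Nrf2 eyes. The log2 fold changes were 0.37 for Tpm1 (SE 0.47, adjusted p = 0.699, edgeR) and 0.14 for Tpm2 (SE 0.45, adjusted p = 0.896, edgeR), the latter −0.22 without mouse 4 and −0.020 without the replicate block.

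Smooth muscle RNA shared part of its pattern with Tpm1. A list of 10 smooth muscle genes, of which Acta2, Myh11 and Smtn had the highest CPM, summed to 2425, 962, 369, 364 and 1038 CPM in control eyes of mice 1 to 5. In Nrf2 eyes it summed to 356, 694, 643, 2017 and 905 CPM, and 0 of the 10 genes were called by edgeR (0 at an unadjusted p under 0.05, and 0 by DESeq2, against 6.33%, 19.1% and 9.44% of all tested genes). The control eye of mouse 1 and the Nrf2 eye of mouse 4 were highest for this list and for Tpm1, and the within-mouse direction was the same as for Tpm1 in mice 1, 3 and 4 and opposite in mouse 5. In mouse 2 the list was lower in the Nrf2 eye, whereas Tpm1 was at 144 CPM in the control eye and 146 CPM in the Nrf2 eye. The within-mouse log2 ratios of the list were −2.77, −0.47, 0.80, 2.47 and −0.20 in mice 1 to 5, beside −2.76, −0.82, 2.12, 1.22 and 3.19 for the 36 genes without Tpm1 and Tpm2, so that the signs matched in mice 1 to 4. The part of smooth muscle in the values of the muscle genes was not tested.

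In the Z disc, which anchors the thin filaments, and along titin, the Nrf2 eyes of mice 3, 4 and 5 again held the most for each gene but Ttn. Ttn, the spring that spans the sarcomere from Z disc to M band, was at 6.22, 5.30, 5.73, 30.5 and 5.86 CPM in control eyes and at 2.64, 4.31, 37.2, 19.8 and 36.4 CPM in Nrf2 eyes. Of the control eyes, that of mouse 4 stood far above the rest. Ttn had a fitted log2 change of 0.60 (SE 0.82, adjusted p = 0.749, edgeR), which was 0.052 without mouse 5 and 1.12 without mouse 1. Actn2 and Actn3, the alpha-actinins of all and of fast fibres, ranged from 0.455 to 8.68 CPM and from 0.773 to 18.5 CPM. Tcap, the cap of titin, had 3 counts in the Nrf2 eye of mouse 1 and 569 in that of mouse 5, Myoz1 had 0 and 297, and Ldb3 had 16 and 97. Xirp2, a protein of the cell junctions and Z discs of striated muscle, had 2 counts or fewer in the Nrf2 eyes of mice 1 and 2 and 119 in that of mouse 3.

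Among the calcium genes, Atp2a1, the SERCA1 pump of fast fibres, was at 41.3, 17.8, 38.5, 35.2 and 23.9 CPM in control eyes. It was at 1.59, 6.71, 171, 117 and 273 CPM in Nrf2 eyes, a range of 171-fold with control eyes in the middle. Its fold change was 0.70 on the log2 scale (SE 1.44, adjusted p = 0.851, edgeR) and was −0.20 without mouse 5. Atp2a1, with 13582 counts, overlaps Rabep2 on the opposite strand, with 6032, and their reads cannot be separated with certainty. Pvalb, the soluble calcium buffer of fast fibres that some neurons also make, was at 7.55, 5.85, 8.31, 5.43 and 7.21 CPM in control eyes and at 0.364, 4.27, 29.8, 19.4 and 48.7 CPM in Nrf2 eyes (log2 fold change 0.76, SE 1.20, adjusted p = 0.769, edgeR). Like Atp2a1, Pvalb had overlapping groups and was highest in the Nrf2 eyes of mice 3, 4 and 5, and its fold change was 0.14 without mouse 5 and 1.56 without mouse 1. Casq1, the calcium store of the sarcoplasmic reticulum, ranged from 0.364 to 26.8 CPM. The channels Ryr1 and Cacna1s, which release calcium and sense voltage, ranged less, from 1.26 to 5.22 CPM and from 0.273 to 2.55 CPM.

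Among the energy genes, Ckm, the cytosolic creatine kinase that regenerates ATP, had the widest range of any listed gene with a count in all 10 libraries. It was at 17.1, 8.93, 18.7, 22.3 and 11.8 CPM in control eyes and at 0.137, 2.40, 78.5, 50.6 and 122 CPM in Nrf2 eyes. The lowest value rests on 3 counts and the range was 892-fold. Ckm had a fitted log2 change of 0.40 (SE 1.68, adjusted p = 0.927, edgeR), which was −0.29 without mouse 3, −0.56 without mouse 5 and 1.38 without mouse 1. Its within-mouse log2 ratios were −6.12, −1.87, 2.08, 1.11 and 3.27 in mice 1 to 5. Mb, myoglobin, the oxygen store of muscle, was at 2.91, 1.91, 1.61, 4.54 and 1.06 CPM in control eyes and at 0.0911, 0.691, 7.15, 6.26 and 8.92 CPM in Nrf2 eyes (log2 fold change 0.27, SE 1.22, adjusted p = 0.945, edgeR). For Mb too the fold change was negative without mouse 3 (−0.34) or mouse 5 (−0.52). Ckmt2, the mitochondrial creatine kinase, had 0 counts in the Nrf2 eye of mouse 1 and 156 in that of mouse 5.

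For several genes the ratio to Atp2a1 varied less than the amount. The ratio of counts to Atp2a1 had a coefficient of variation over the 10 libraries of 20.3% for Myl1, 23.4% for Tnnc2, 24.8% for Tnnt3, 27.5% for Acta1 and 32.7% for Ckm. These were the lowest values among the listed genes. For the fast genes Myh4, Casq1, Pvalb, Mybpc2 and Myoz1 it was 34.5% to 56.7%. For the fast genes Mylpf, Actn3, Myh1, Myh2 and Tnni2 it was 91.1% to 191%. The Myl1 ratio lay between 0.224 and 0.398, although Atp2a1 itself varied 171-fold. The Tnnc2 ratio lay between 0.114 and 0.342 and the Ckm ratio between 0.0857 and 0.635, both lowest in the Nrf2 eye of mouse 1, where Tnnc2 had 4 counts and Ckm 3. For Myh7, by contrast, the ratio was 3.09 and 0.752 in the Nrf2 eyes of mice 1 and 2 and 0.00666 to 0.0766 in the other libraries. For Tnni2 it was 3.43 in the Nrf2 eye of mouse 1 and at most 0.406 elsewhere. These ratios share a denominator and describe 10 libraries, with no test.

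The fibre type summary followed from these values. Of the counts of 14 fast and 7 slow genes together, the fast genes took 88.4% to 96.6% in the 5 control eyes. They took 97.1%, 96.0% and 98.4% in the Nrf2 eyes of mice 3, 4 and 5, and 53.8% (49.5 to 58.1) and 60.5% (57.8 to 63.2) in those of mice 1 and 2. In the Nrf2 eye of mouse 1, with 522 counts of both kinds, Tnni2 gave 120 of the 281 fast counts. Myh7 and Tnnt1 gave 108 and 83 of the slow counts there. In the Nrf2 eye of mouse 2, Tnnt1 gave 288 of 1231 counts of both kinds. The shares of these eyes therefore rest largely on few genes. Control eyes had a mean share of 91.4% ± 3.09 and Nrf2 eyes one of 81.2% ± 22.1 (SD over 5 eyes). The slow genes summed to 4.75 to 19.8 CPM, a 4.16-fold range, whereas the fast genes summed to 12.8 to 844 CPM, a 65.9-fold range.

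A second list of 40 genes of skeletal muscle outside the 38 was read beside them, and 24 were tested. Of these, 3 were higher in Nrf2 eyes (3.6% of all tested genes were) and 0 were lower. The fitted log2 fold changes of the 24 had a median of 0.41, which was 0.18 without mouse 5 and 0.99 without mouse 1. Myod1, a transcription factor of the muscle lineage, had 0, 0, 2, 0 and 1 counts in control eyes of mice 1 to 5 and 64, 24, 28, 13 and 44 in their Nrf2 eyes. The groups did not overlap, and the Nrf2 eyes of mice 1 and 5, with the least and the most contractile RNA, had the highest Myod1, at 2.91 and 2.67 CPM. The ratio of summed counts, scaled to library totals, was 53.3 with a counting interval of 17.9 to 261, since the control total is 3 counts. Its adjusted p was 0.00764 (edgeR), and its fitted fold change depends on the prior count.

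Musk, the receptor kinase that organises the nerve and muscle synapse, was at 4.54, 2.83, 6.15, 4.96 and 5.02 CPM in control eyes. It was at 14.3, 14.2, 11.2, 16.2 and 14.6 CPM in Nrf2 eyes, higher in 5 of 5 mice with no overlap and at a like level whether contractile RNA was scarce or plentiful. Musk had a fitted log2 change of 1.59 (SE 0.22, adjusted p = 0.00801, edgeR). Jsrp1, a protein of the junctional sarcoplasmic reticulum, had 7, 5, 6, 4 and 6 counts in control eyes and 14, 25, 27, 20 and 35 in Nrf2 eyes. Its log2 fold change of 1.94 (SE 0.37, adjusted p = 0.0458, edgeR) did not pass the threshold when any 1 mouse was left out. The genes of the list with the highest CPM, Pygm, Cox8b and Eno3, had adjusted p of 0.859, 0.568 and 0.722 (edgeR), and Pygm and Cox8b lay between 64.5 and 136 CPM and between 68.2 and 209 CPM in every library. The muscle forms of glycogen phosphorylase (Pygm) and of a cytochrome c oxidase subunit (Cox8b) thus varied far less than Ckm. In the Nrf2 eye of mouse 1, where Ckm had 3 counts, Pygm had 1576 and Cox8b 2126. Which cells of the eyecup these counts came from was not tested.

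**Figure D5:**
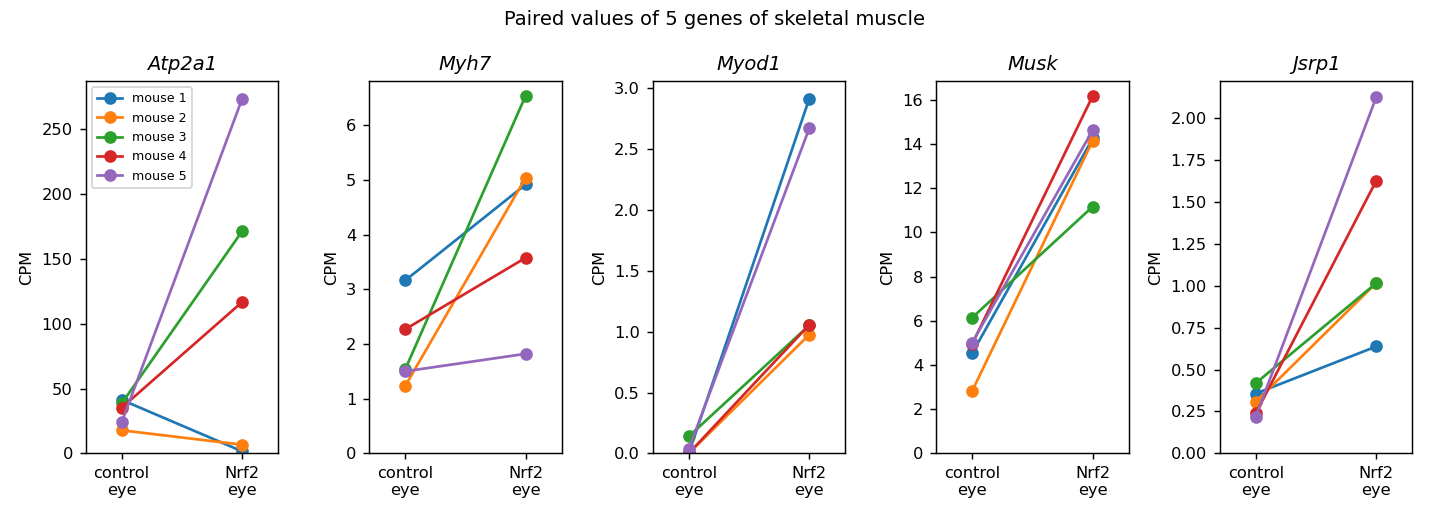
CPM of Atp2a1, Myh7, Myod1, Musk and Jsrp1 in the control and the Nrf2 eye of each mouse (joined points, 1 colour a mouse, linear axes from 0). The lines of Atp2a1 fall in mice 1 and 2 and climb in mice 3, 4 and 5, while those of Myod1, Musk and Jsrp1 climb in all 5 mice.

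Markers of neighbouring tissues shared the within-mouse direction of the contractile genes to differing degrees. Of a list of 10 genes drawn up for heart and masticatory muscle, 6 were tested and 1 was lower in Nrf2 eyes (2.73% of all tested genes were). The list also holds Myh14, a non-muscle myosin and by far its most abundant gene, at 196 to 461 CPM. The summed list had within-mouse log2 ratios of 0.26, 0.041, −0.69, −0.83 and −1.07 in mice 1 to 5. Its direction was thus opposite to that of the 36 genes without Tpm1 and Tpm2 in all 5 mice. Myl4, the atrial light chain, was at 12.9, 17.4, 23.3, 38.7 and 13.4 CPM in control eyes and at 5.05, 6.38, 9.51, 5.77 and 5.52 CPM in Nrf2 eyes (log2 fold change −1.62, SE 0.29, adjusted p = 0.0117, edgeR). A list of 10 genes of fibroblasts and sclera summed to between 367 and 917 CPM in control eyes and between 306 and 1138 CPM in Nrf2 eyes. The sum was lowest in the Nrf2 eye of mouse 1 and highest in that of mouse 4. It had the direction of the 36 genes in mice 1, 3, 4 and 5. Of this list, edgeR called 0 of 9 tested genes (0 at an unadjusted p under 0.05), and DESeq2 called 0. Of all tested genes these shares were 6.33%, 19.1% and 9.44%. Of 6 fat markers 1 was tested, the lipid droplet gene Plin4, which was at 4.19 to 13.1 CPM, lowest in the Nrf2 eye of mouse 1 and highest in those of mice 3, 4 and 5, as many contractile genes were (adjusted p = 0.736, edgeR). Adipoq, Cidec and Lep, which define fat, had 7, 1 and 0 counts in all 10 libraries. The summed fat list, which is mostly Plin4, had the direction of the 36 genes in all 5 mice. Rod RNA summed to between 37.7 and 17993 CPM, highest in both eyes of mouse 2. The rod list had the direction of the 36 genes in mouse 2 only, and a list of peripheral myelin genes in mouse 4 only. A list of endothelial genes had it in mice 3 and 5. Of 10 RPE genes, 4 were lower in Nrf2 eyes, Rpe65, Rgr, Lrat and Rlbp1, and 0 higher, against 2.73% and 3.6% of all tested genes. The summed RPE list had the direction of the 36 genes in mice 1 and 2. The part of these tissues in the values of the muscle genes was not tested.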

How the data were processed

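RNA was sequenced from both eyes of 5 mice (10 libraries, 1 per eye), and groups and pairs were taken from the treatment and animal number in the labels. The authors deposited raw counts, whole numbers of reads for each Ensembl gene, which they had not normalized. The authors aligned reads to mm10 with STAR and counted them with featureCounts, and in parallel estimated counts with Salmon (0.8.2 per the submitters' processing notes). Which table was deposited, the strand setting and filters are not given in the sources used here. The labels give 2 sequencing runs but not which library was in which, so run and group cannot be told apart.

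Symbols, positions and exon lengths came from GENCODE M21 (GRCm38), which held 47224 of 47729 identifiers (98.9%), and 0 columns belonged to other samples. CPM are counts scaled to library totals. Differences were tested over the whole table with edgeR 4.0.16 in R 4.3.3 (filterByExpr, TMM, the quasi-likelihood test with the mouse as a block, Benjamini-Hochberg adjustment, threshold 0.05), which was also tested on simulated data. For the SE, log2 CPM (prior count 2) was subtracted within each mouse and the SD over the 5 mice was divided by the square root of 5. Within-mouse log2 ratios of single genes are on that scale. Beside a fitted edgeR fold change, the SE is therefore that of the mean within-mouse log2 ratio, which is another estimate than the fit. It does not measure the error of the fitted value. Alternatives were DESeq2 1.42.0, other library scaling, other filters, no block and each mouse left out. The eyes of a mouse pair by origin, and the correlation of their deviations from group means was 0.19 to 0.71, against −0.42 to 0.28 (median −0.08) between mice, so that mice 1, 4 and 5 lay below the highest value between mice. No 2 libraries agreed within sampling noise (smallest chi-square per degree of freedom 34.5). Overlaps in sequence are shares of 50-base stretches of the longest protein-coding transcript.

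The 38 genes and the gene lists were chosen with earlier results of these data known. Values in each library are given for the myosin heavy chains, the troponins, Acta1, Ckm, Mb, Atp2a1, Pvalb, Tpm1, Tpm2, Ttn and any listed gene past the threshold, and of every other list at most the 3 genes with the highest mean CPM and those past the threshold, with exceptions named. In the other lists, edgeR called 0 of 8 tested endothelial genes and 0 of 9 rod genes. It called 0 of 1 fat gene and 0 of 5 genes of peripheral myelin. At an unadjusted p under 0.05 these lists had 0, 1, 0 and 0 genes, and DESeq2 called 0, 1, 0 and 0. Of all tested genes, 6.33% were called by edgeR, 19.1% had an unadjusted p under 0.05 and 9.44% were called by DESeq2. The mice were separate animals, so p-values measure the spread between mice.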

Additional observations from a re-analysis of the deposited data

Results flagged for a closer look

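Within the 5 eyes of a group, 80 sets of values were checked for an eye far from the others (Dixon's test at the 95% level), and 8 were found where chance gives about 4, 1 in 20. All 8 were in control eyes. The control eye of mouse 4 was high for Myh1 (3.70 on the log2 CPM scale, next 0.99), Ttn (4.94, next 2.64) and Ryr1 (1.77, next 0.65). In the same eye the share of Myh1 among myosin heavy chain counts was 54.2% (next 9.86%) and that of Myh4 was 21.5% (next 77.5%). The control eye of mouse 1 was high for Tpm1 (8.36, next 7.13) and for the summed CPM of the 38 genes (9.49 as log2, next 8.62). The control eye of mouse 2 was low for Tnni2 (1.89, next 2.72).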

How the results depend on the processing

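Leaving out single mice turned the direction of 8 of the 16 genes compared, and the other 8, among them the fast genes Myh1, Myh2, Tnni2 and Pvalb, stayed above 0, from 0.17 to 0.81 for Tpm1. With 1 mouse left out, the fitted log2 fold change ran from −0.19 to 1.80 for Myh4, −0.27 to 1.61 for Tnnt3, −0.38 to 1.53 for Tnnc2, −0.24 to 1.66 for Acta1, −0.56 to 1.38 for Ckm, −0.52 to 1.14 for Mb, −0.20 to 1.65 for Atp2a1 and −0.22 to 0.37 for Tpm2. The lowest value was without mouse 5, except for Tpm2 (without mouse 4), and the highest without mouse 1. Values were also negative without mouse 3 for Tnnt3 (−0.056), Tnnc2 (−0.032), Ckm (−0.29) and Mb (−0.34), and without mouse 4 for Myh4 (−0.12). Without the replicate block, the log2 fold change of Tpm2 was −0.020, 0 listed genes were called, the median of the 31 genes was 1.52 in place of 0.74, and 755 genes were called in all against 1036. With DESeq2, 1 listed gene was called, Myh7 (log2 fold change 1.12, adjusted p = 0.0496), and 1823 genes in all. Over the edgeR settings the adjusted p of Myh7 was 0.129 to 0.356. With a mean of at least 50 counts required, 1 of the second list was called, as Myod1 and Jsrp1 were then not tested. Myod1 and Musk were called in every other setting. Jsrp1 was lost with library totals alone (adjusted p = 0.0521), with no filter (0.0603) and without each mouse in turn (0.0529 to 0.147, log2 fold change 1.61 to 2.24). With a mouse left out, the mean log2 ratio of the summed CPM was 0.28 to 1.18, the mean fast share 83.6% to 89.9% and the mean Myh4 share 57.2% to 67.5%. The settings were compared for 16 of the 31 tested genes and 3 of the second list, and none of these made a further change of direction or of side of the threshold in the settings that tested it. The cause of those changes was not tested. The few counts of fast genes in the Nrf2 eye of mouse 1 limit what its ratios can show.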
